A study of Mus musculus with 8 samples.

Results

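Replication-dependent histone genes encode the core histones H2A, H2B, H3 and H4 and the linker histone H1 that package newly made DNA. They were taken as the rows of the deposited count table whose gene name starts with Hist1h, Hist2h, Hist3h or Hist4h. This gave 71 of the 37583 genes in the table: 6 H1, 20 H2A, 19 H2B, 13 H3 and 13 H4 genes, under 70 distinct names because Hist2h3c1 is listed under 2 identifiers. By name, 56 of them belong to Hist1 on chromosome 13 and 11 to the Hist2 cluster on chromosome 3. The Hist3 cluster on chromosome 11 held 3, and Hist4h4 lies alone on chromosome 6 (mm9). Hist1h2al, which starts at position 51298057 of chromosome 13, lies far from the other Hist1 genes.

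RNA of liver from 8-month-old mice of the C57BL6/CBA strain was sequenced in 8 libraries. The PR-SET7_LOBE group (4 libraries) carries the genotype PR-SET7_LX_ALB_CRE, in which Cre under the albumin promoter is meant to remove Pr-Set7, the enzyme that monomethylates histone H4 at lysine 20, from hepatocytes, while other liver cells keep it; the labels do not say what LOBE stands for. The DEN_WT group (2 libraries) is wild type and received diethylnitrosamine (DEN), a liver carcinogen, at 15 days of age, at a labelled amount of 25 ml per kg with no concentration given. The WT group (2 libraries) is wild type with no DEN treatment in its labels. The DEN_WT libraries were registered under sample numbers apart from those of PR-SET7_LOBE and WT. Whether all were made together is not labelled, so a difference of batch and one of DEN_WT cannot be told apart. Whether the numbered libraries of a group are separate animals is not labelled, so p-values measure the spread between these libraries, which may be technical. Total counts ran from 7305595 to 12170293 in PR-SET7_LOBE, were 10120058 and 10802335 in DEN_WT, and were 13757466 and 16108081 in WT. Setd8, the gene of Pr-Set7, had 62.6, 57.4, 47.9 and 46.5 CPM (reads scaled to the library size) in the 4 libraries labelled PR-SET7_LOBE, 40 and 42.8 CPM in DEN_WT and 51.9 and 56.0 CPM in WT, so its count over the whole gene (the deleted part is not labelled) did not separate the libraries labelled PR-SET7_LOBE from WT (log2 fold change -0.01, SE 0.32, adjusted p = 0.994).

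Most mRNAs end in a poly(A) tail, but the classical histone mRNAs of S phase do not. They end shortly after a conserved stem-loop that is bound by the stem-loop binding protein SLBP and cut with the help of the U7 small nuclear ribonucleoprotein. Some histone genes also make longer transcripts that run past the stem-loop to an ordinary polyadenylation site, a form known from differentiated and non-dividing cells. The libraries were made from RNA selected on oligo(dT) beads, which hold RNA with a poly(A) stretch. The histone counts below therefore do not measure the whole pool of histone mRNA, and which 3' ends were read was not measured here.

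The stem-loop is shown because it is the feature that sets these genes apart from other mRNAs. GENCODE M21 transcripts (GRCm38) gave a sequence for all 70 names, and a stem-loop of 16 bases was found in 45 of them: 4 H1, 11 H2A, 9 H2B, 9 H3 and 12 H4 genes. The 45 stem-loops had 8 different sequences. An annotated transcript that stops early cannot show a stem-loop, so the genes without a match are not shown to lack one. In the lines below the capitals mark the stem and loop, and the flanking bases of each transcript are in lower case.
Hist1h1c: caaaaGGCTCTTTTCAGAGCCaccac
Hist1h1e: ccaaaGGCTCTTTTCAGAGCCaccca
Hist2h2ac: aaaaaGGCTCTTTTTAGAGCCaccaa
Hist1h2bg: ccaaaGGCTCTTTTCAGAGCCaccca
Hist1h2bk: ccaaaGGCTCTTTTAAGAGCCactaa
Hist2h3c2: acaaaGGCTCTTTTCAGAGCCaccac
Hist1h4h: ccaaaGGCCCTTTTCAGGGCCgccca
Hist1h4i: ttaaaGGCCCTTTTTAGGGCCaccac
Hist1h4j: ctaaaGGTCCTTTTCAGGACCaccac
The first of these, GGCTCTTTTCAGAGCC, was the most common and stood in 25 genes of the H1, H2A, H2B and H3 classes. The most common form with a GGCCC stem, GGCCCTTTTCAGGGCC, stood in 7 genes, each of which encodes H4. Other forms with that stem stood in the H4 genes Hist1h4i, Hist2h4 and Hist1h4a. The annotated transcript ran on for 840 bases after the stem-loop in Hist1h1c, 330 bases in Hist1h4i and 57 bases in Hist2h2ac.

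The histone genes together held 0.0428 to 0.117% of all counts in PR-SET7_LOBE, 0.0136 and 0.0151% in DEN_WT, and 0.049 and 0.0593% in WT. Of the 71 genes, 66 had at least 1 count and 5 had none: Hist2h2aa1, Hist2h2aa2, Hist2h2ab, Hist2h3b and the second Hist2h3c1 entry. All 5 overlap another gene of the count table. How reads of overlapping genes were counted is not given, so the lack of counts does not show a lack of RNA. After the filter on low counts 49 were tested (3 H1, 14 H2A, 17 H2B, 5 H3 and 10 H4), and the other 17 detected genes had mean levels of at most 0.584 CPM. Hist1h2aj, Hist1h2al and Hist3h2bb-ps are annotated as pseudogenes.

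Levels per kilobase use the shorter of the mm9 gene span and the longest GENCODE M21 transcript, so the kind of length differs between genes. By this measure and over all libraries, the highest genes were Hist1h2bc for H2B (70.7 CPM per kb) and Hist1h1c for H1 (59.1 CPM per kb). In the other classes they were Hist2h2ac for H2A (22.1 CPM per kb), Hist1h4i for H4 (8.42 CPM per kb) and Hist2h3c2 for H3 (3.81 CPM per kb). The order differed by group: in WT Hist1h2bg (103 CPM per kb) and Hist1h2bl (94.2 CPM per kb) were above Hist1h2bc (83.7 CPM per kb), and in PR-SET7_LOBE Hist1h4k (9.23 CPM per kb) was above Hist1h4i (8.86 CPM per kb). Hist1h1c held 88.8 to 90.7% of the summed H1 level in PR-SET7_LOBE, 96.4 and 96.6% in DEN_WT, and 72.1 and 92.7% in WT. Hist1h2bc held 19.7 to 34.5% of the H2B sum in PR-SET7_LOBE, 75.0 and 77.9% in DEN_WT, and 14.9 and 20.4% in WT. A single gene thus led H1 in each library, and a single gene led H2B most strongly in DEN_WT.

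**Figure D1:**
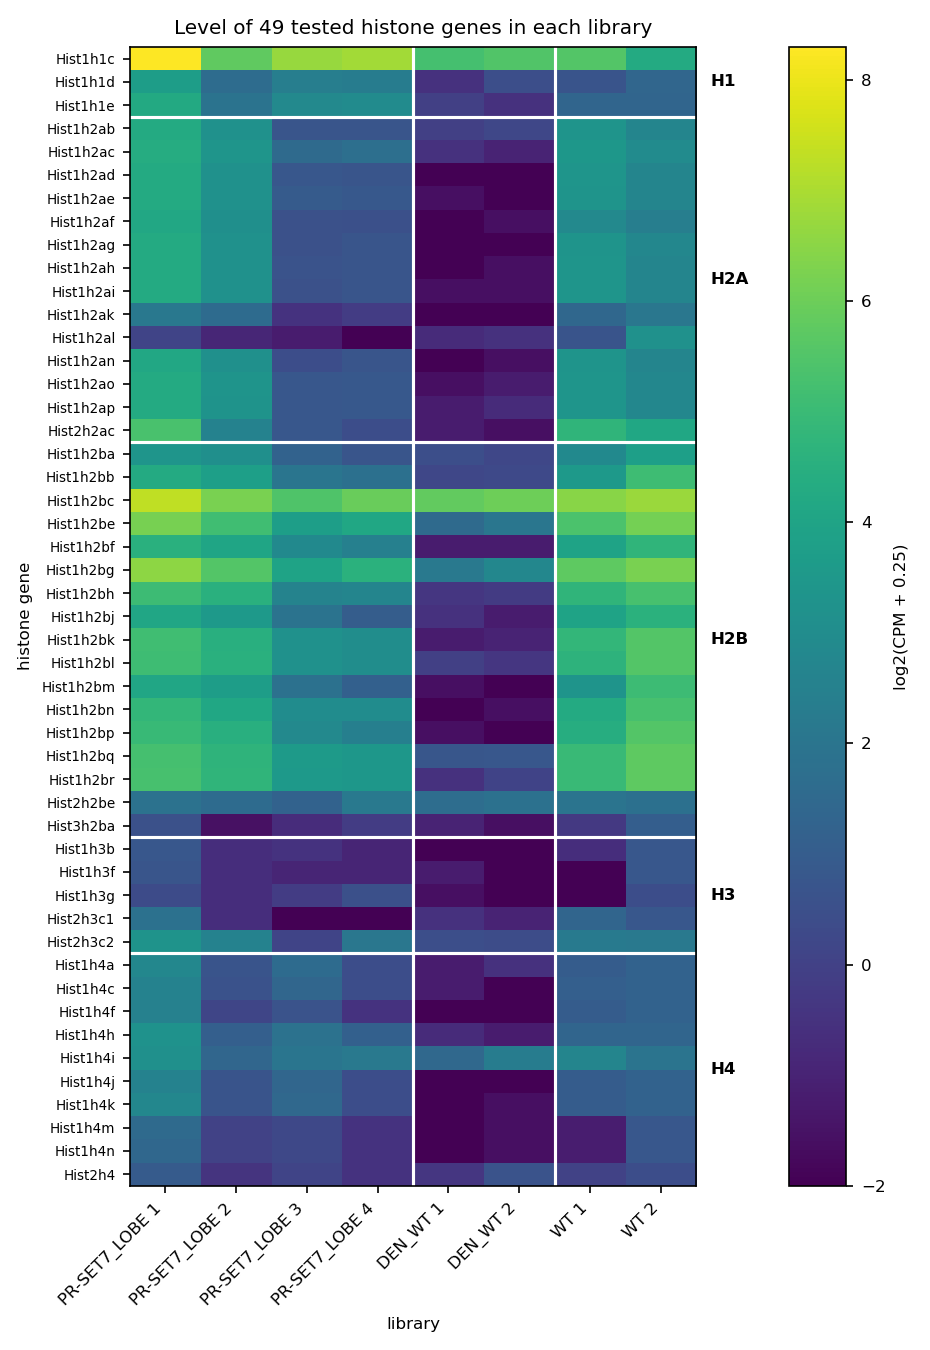
Level of each of the 49 tested histone genes (rows, grouped by class) in each library (columns), as log2(CPM + 0.25). The H2A rows are dark in both DEN_WT libraries, the Hist1h1c and Hist1h2bc rows are bright in all 8 libraries, and PR-SET7_LOBE replicate 1 holds the highest value among the 4 PR-SET7_LOBE libraries in 47 of the 49 rows.

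How reads from copies were counted bears on the values of histone genes that share sequence. Many histone genes of a class are near-copies of each other, and a read of a shared stretch fits several genes. Of the tested histone genes, 25 share 50% or more of their 50-base words with another gene, and 20 share 10 to 50%. The other 4, Hist1h1c, Hist1h1d, Hist2h2be and Hist2h4, share under 10%. In WT replicate 1, 9 of the 20 H2A genes had between 103 and 105 counts, and in WT replicate 2, 7 had between 68 and 71. In PR-SET7_LOBE replicate 1, 8 had between 205 and 209 counts, and in replicate 2, 7 had between 92 and 95. In the DEN_WT libraries no H2A gene in replicate 1 and 1 in replicate 2 reached 10 counts. Several H2A copies thus held nearly equal counts in WT and in PR-SET7_LOBE replicates 1 and 2. Fewer did so in PR-SET7_LOBE replicate 3 (4 genes) and replicate 4 (6 genes). Of the 19 H2B genes at most 2 and 3 lay within 5% of each other in WT, and 2 to 4 in PR-SET7_LOBE. Whether a class sum in these groups holds a read more than once was not tested. Equal counts were also looked for in 52 pairs of near-identical genes of any kind (95% or more of their 50-base words shared), among pairs with at least 10 counts. Equal counts were held by 30.8, 29.4, 13.3 and 25.0% of such pairs in PR-SET7_LOBE, by 0 of 22 and 0 of 18 in DEN_WT, and by 50 and 23.5% in WT. The median ratio of the lower to the higher count of a pair was 0.858 to 0.95 in PR-SET7_LOBE, 0.72 and 0.756 in DEN_WT, and 0.991 and 0.947 in WT. The handling of reads with several hits is not given in the sources used here, and for genes that share most of their sequence a difference in counting and a difference in RNA between DEN_WT and the other groups cannot be told apart.

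The summed levels of the classes differed in how they moved. H1 summed to 346, 62.1, 116 and 129 CPM in PR-SET7_LOBE, to 39.4 and 47.0 CPM in DEN_WT, and to 49.8 and 26.8 CPM in WT. Every PR-SET7_LOBE library lay above both other groups, which overlapped each other. H2A summed to 257, 110, 19.0 and 20.0 CPM in PR-SET7_LOBE, to 2.83 and 3.27 CPM in DEN_WT, and to 138 and 103 CPM in WT. PR-SET7_LOBE spanned the WT values, and both DEN_WT libraries were far below all others. H2B summed to 652, 384, 157 and 178 CPM in PR-SET7_LOBE, to 73.2 and 85.8 CPM in DEN_WT, and to 428 and 713 CPM in WT. H3 summed to 23.7, 9.47, 3.9 and 7.29 CPM in PR-SET7_LOBE, to 1.95 and 1.41 CPM in DEN_WT, and to 8.81 and 16.3 CPM in WT. H4 summed to 56.2, 13.0, 21.8 and 12.7 CPM in PR-SET7_LOBE, to 4.07 and 7.06 CPM in DEN_WT, and to 19.6 and 22.7 CPM in WT. For H2B, H3 and H4, PR-SET7_LOBE and WT overlapped and DEN_WT lay below both. The ratio of the group means of PR-SET7_LOBE to WT was 4.27 for H1, 0.84 for H2A, 0.601 for H2B, 0.885 for H3 and 1.23 for H4. The ratio of DEN_WT to WT was 1.13 for H1, 0.0253 for H2A, 0.139 for H2B, 0.134 for H3 and 0.263 for H4. Without PR-SET7_LOBE replicate 1 the log2 ratio of PR-SET7_LOBE to WT was 1.42 for H1 (2.09 with it), -1.28 for H2A (-0.25), -1.25 for H2B (-0.74), -0.86 for H3 (-0.18) and -0.42 for H4 (0.3), so the direction for H4 turned. Without Hist1h1c the log2 ratio of DEN_WT to WT for H1 was -1.89, against 0.17 with it, and for H2B it was -4.65 without Hist1h2bc, against -0.67 for Hist1h2bc alone. These sums are descriptions, and no test was made of them.

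**Figure D2:**
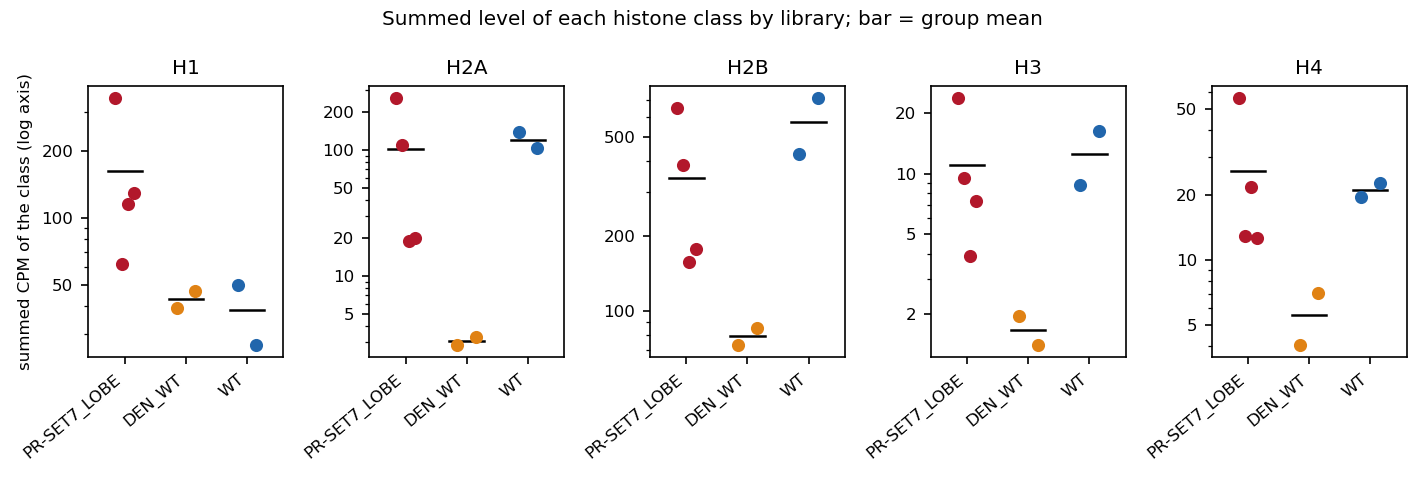
Summed CPM of the H1, H2A, H2B, H3 and H4 genes (vertical axes, logarithmic, each panel on its own scale) by group; points are libraries and bars are group means. H1 is highest in PR-SET7_LOBE, with a mean of 163 CPM, against 43.2 CPM in DEN_WT and 38.3 CPM in WT, while the other 4 classes are lowest in DEN_WT.

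The first comparison set the libraries labelled PR-SET7_LOBE, in which hepatocytes are to lose Pr-Set7 by genotype, against WT. The linker histone genes were the histone genes with the largest positive differences, and the H2B genes were lower on average, but no histone gene passed the test. None of the 49 tested genes was called higher or lower in PR-SET7_LOBE than in WT at an adjusted p under 0.05 (edgeR quasi-likelihood test, Benjamini-Hochberg adjustment over all 17362 tested genes), where 0.248% of all tested genes were called, 0.15% higher and 0.0979% lower. At an unadjusted p under 0.05 there were 4, Hist1h1c, Hist1h1d, Hist1h1e and Hist1h2al. DESeq2 called 2, Hist1h1c higher and Hist1h2al lower, which is 2 of 49 where DESeq2 called 5.34% of all tested genes. Limma with quality weights called 1, Hist2h2ac lower, and 1.24% of all tested genes. PR-SET7_LOBE replicate 1 held the highest PR-SET7_LOBE value in 47 of the 49 genes. Its deviations in gene level also followed transcript GC content most (r = 0.6 across genes, against -0.288 to 0.294 in the other libraries), and the part of this in the histone values was not tested. Without that library 2 of 45 tested genes were called, Hist2h2ac and Hist1h2al, both lower, which is 4.44% where 13.9% of all tested genes were called.

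Hist1h1c (ENSMUSG00000036181, mm9 chromosome 13, 23830676 to 23832235, plus strand) encodes the linker histone subtype that is abundant in differentiated cells such as hepatocytes. It had 314, 55.4, 103 and 116 CPM in PR-SET7_LOBE, 38.1 and 45.3 CPM in DEN_WT, and 46.2 and 19.3 CPM in WT. All 4 PR-SET7_LOBE libraries were above both WT libraries and both DEN_WT libraries. The log2 fold change of PR-SET7_LOBE over WT was 2.17 (SE 0.69, adjusted p = 0.183 with edgeR and 0.0152 with DESeq2), and it was 1.49 without PR-SET7_LOBE replicate 1. Over 17 alternative settings it ran from 1.49 to 2.92 with adjusted p from 0.0152 to 0.62.

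Hist1h1e (mm9 chromosome 13, 23713624 to 23714371, minus strand), another somatic H1 subtype, had 19.0, 3.54, 6.96 and 7.65 CPM in PR-SET7_LOBE, 0.708 and 0.442 CPM in DEN_WT, and 2.3 and 2.3 CPM in WT. The groups did not overlap, in the order PR-SET7_LOBE, WT, DEN_WT from high to low. The log2 fold change of PR-SET7_LOBE over WT was 2.01 (SE 0.69, adjusted p = 0.207). Hist1h1d (mm9 chromosome 13, 23646901 to 23650721, plus strand), the H1 subtype also called H1.3, had 12.9, 2.87, 5.01 and 4.74 CPM in PR-SET7_LOBE, 0.443 and 1.15 CPM in DEN_WT, and 1.34 and 2.4 CPM in WT. Again PR-SET7_LOBE lay above WT and DEN_WT below it, and the log2 fold change of PR-SET7_LOBE over WT was 1.76 (SE 0.72, adjusted p = 0.259). Thus in 3 of 3 tested H1 genes the PR-SET7_LOBE libraries did not overlap WT and were higher, as in 11.6% of all tested genes, and of the others 1, Hist1h2al, did not overlap and was lower, as in 10.5%. The other 3 H1 genes were not tested: Hist1h1a, Hist1h1b and the testis gene Hist1h1t had at most 2.12 CPM in any library.

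**Figure D3:**
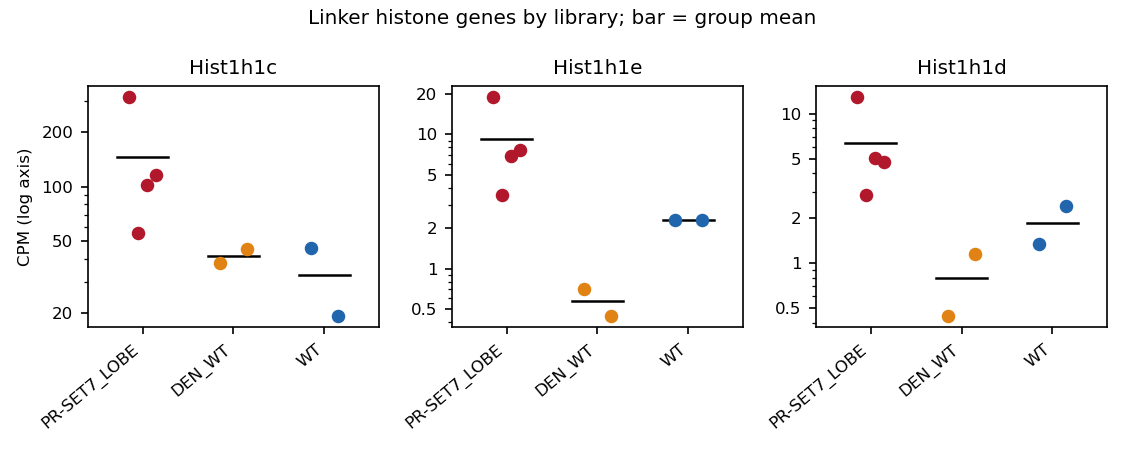
CPM (vertical axes, logarithmic) of the linker histone genes Hist1h1c, Hist1h1e and Hist1h1d by group; points are libraries and bars are group means. In each panel the 4 PR-SET7_LOBE libraries lie above both WT libraries, with replicate 1 the highest; for Hist1h1c DEN_WT lies within the range of WT.

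The promoters of these 3 genes are shown because they are the tested H1 genes and had the same direction. RefSeq (GRCm38.p6) gave a promoter window of 300 bases, from 250 before to 50 after the annotated start, for 62 of the genes. The capitals mark, from left to right, the H1 box AAACACA, the CCAAT box and a TATA element.
Hist1h1c promoter (chr13:23738557-23738856, plus strand): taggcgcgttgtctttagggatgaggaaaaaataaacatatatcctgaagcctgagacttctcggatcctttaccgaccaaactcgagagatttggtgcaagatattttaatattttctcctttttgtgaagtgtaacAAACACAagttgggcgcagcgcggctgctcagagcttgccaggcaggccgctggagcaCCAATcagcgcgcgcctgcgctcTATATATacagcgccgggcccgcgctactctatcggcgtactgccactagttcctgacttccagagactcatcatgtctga
Hist1h1d promoter (chr13:23554782-23555081, plus strand): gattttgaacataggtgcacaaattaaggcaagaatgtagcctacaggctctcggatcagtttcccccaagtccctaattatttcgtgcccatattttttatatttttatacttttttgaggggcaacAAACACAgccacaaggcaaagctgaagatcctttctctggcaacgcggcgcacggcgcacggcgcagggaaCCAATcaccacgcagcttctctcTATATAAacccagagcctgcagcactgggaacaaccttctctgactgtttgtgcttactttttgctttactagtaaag
Hist1h1e promoter (chr13:23622509-23622808, minus strand): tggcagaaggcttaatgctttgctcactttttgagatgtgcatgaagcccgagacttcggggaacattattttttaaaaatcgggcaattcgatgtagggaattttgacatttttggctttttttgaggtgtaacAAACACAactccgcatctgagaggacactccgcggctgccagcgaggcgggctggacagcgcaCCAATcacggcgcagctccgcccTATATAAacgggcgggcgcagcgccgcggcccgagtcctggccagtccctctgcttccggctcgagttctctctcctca
The H1 box lay 112, 122 and 115 bases before the start in Hist1h1c, Hist1h1d and Hist1h1e. Searched on both strands, AAACACA was found in 5 of 6 H1 promoters, in 2 of 18 H2A, 2 of 16 H2B, 0 of 10 H3 and 0 of 12 H4 promoters, and in 7.18% of all 32851 promoters of the same length. CCAAT was found in all H1, H2A, H2B and H3 promoters searched and in 3 of 12 H4 promoters, against 37.4% of all promoters. TATAA or TATAT was found in 55 of 62, against 32.2%.

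Among the core histones, 17 of 17 tested H2B genes had a negative log2 fold change of PR-SET7_LOBE over WT, with a median of -0.96 and a range of -1.29 to -0.12. The median was -0.07 over 14 H2A genes, -0.33 over 5 H3 genes and 0.44 over 10 H4 genes, against 0.106 over all tested genes. The lowest adjusted p was 0.131 among H2A genes, 0.338 among H2B genes, 0.709 among H3 genes and 0.544 among H4 genes. Since copies in a class can hold the same reads, the like values of their members are not independent. Hist1h2be had 72.1, 35.4, 13.3 and 17.3 CPM in PR-SET7_LOBE, against 41.6 and 71.2 CPM in WT, and its groups overlapped, as did those of each of the other 16 H2B genes. Hist2h2ac, an H2A gene of the Hist2 cluster, had 39.9, 5.64, 1.49 and 1.09 CPM in PR-SET7_LOBE, against 26.1 and 17.3 CPM in WT. PR-SET7_LOBE replicate 1 was above both WT libraries and the other 3 were below them. The pseudogene Hist1h2al had 0.845, 0.287, 0.186 and 0 CPM in PR-SET7_LOBE, against 1.34 and 8.94 CPM in WT. Its groups did not overlap (log2 fold change -3.92, SE 1.0, adjusted p = 0.131), with WT replicate 2 far above the rest.

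**Figure D4:**
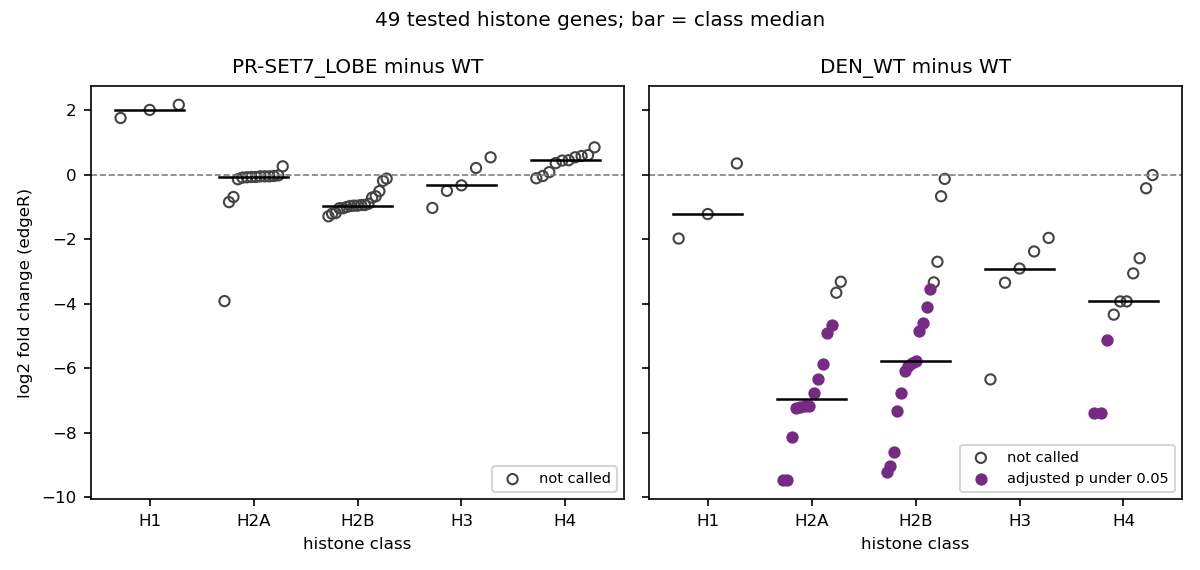
Log2 fold change from edgeR (vertical axis) of each tested histone gene by class, for PR-SET7_LOBE minus WT (left) and DEN_WT minus WT (right); filled points passed an adjusted p under 0.05 and bars are class medians. On the left the 3 H1 genes lie between 1.76 and 2.17 and the H2B genes below 0; on the right the H2A median is -6.97 and the H1 median is -1.22.

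The second comparison set livers of mice that had received DEN as juveniles against untreated livers. H2A and H2B genes were lower in DEN_WT, many of them down to a few counts, while Hist1h1c, Hist1h2bc and Hist1h4i were not called. Of the 49 tested genes 28 fell and 0 rose in DEN_WT relative to WT (57.1% lower), where 9.73% of all tested genes were called, 5.18% higher and 4.54% lower. The groups did not overlap in 43 genes, all lower in DEN_WT, as in 33.3% of all tested genes, and 0 were higher, against 37.8%. By class, 12 of 14 H2A genes, 13 of 17 H2B genes and 3 of 10 H4 genes fell, and none of 3 H1 or 5 H3 genes was called. The median log2 fold change was -6.97 for H2A, -5.79 for H2B, -3.93 for H4, -2.91 for H3 and -1.22 for H1, against 0.058 over all tested genes. For 22 of the 49 genes DEN_WT held 0 to 3 counts in all, where a fitted fold depends on the prior count. With such genes at their bound or count ratio, the medians were -5.96 for H2A, -5.79 for H2B, -3.86 for H4 and -2.82 for H3. In bulk tissue, fewer cells of a type and less RNA per cell cannot be told apart. For genes that share most of their sequence, a difference in read counting cannot be told apart from either. Calls of copies that may hold the same reads are not independent.

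Among H2B genes, Hist1h2bn (mm9 chromosome 13, 21845992 to 21846372) had 0 and 0.0883 CPM in DEN_WT, against 19.3 and 39.3 CPM in WT. With 1 count in DEN_WT and 628 in WT, the level in WT was 667 times that in DEN_WT, and the 95% interval for counting error ran between 119 and 26400 (adjusted p = 0.0019). Hist1h2bf had 0.177 and 0.177 CPM in DEN_WT, against 15.3 and 26.1 CPM in WT (log2 fold change -6.78, SE 0.93, adjusted p = 0.00232). Hist1h2bg had 4.25 and 6.62 CPM in DEN_WT, against 52.6 and 75.0 CPM in WT (log2 fold change -3.55, SE 0.79, adjusted p = 0.0193). In these 3 genes both DEN_WT libraries were below both WT libraries. The lower H2B genes covered a wide range of remaining levels, with Hist1h2bg the least reduced among those called.

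Hist1h2bc (ENSMUSG00000018102) behaved differently from these. It had 57.0 and 64.3 CPM in DEN_WT, against 87.5 and 106 CPM in WT, and was not called (log2 fold change -0.67, SE 0.56, adjusted p = 0.445). Hist2h2be had 2.92 and 3.36 CPM in DEN_WT, against 3.64 and 3.23 CPM in WT, with groups that overlapped (log2 fold change -0.13, SE 0.57, adjusted p = 0.902). A p that misses the threshold does not show that these genes were the same in both groups.

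Among H2A genes, Hist1h2ag had no counts in either DEN_WT library, against 9.86 and 6.55 CPM in WT, and was at least 61.6-fold lower in DEN_WT, taking 3 counts over the group as the floor (adjusted p = 0.025). Hist2h2ac had 0.177 and 0.0883 CPM in DEN_WT, against 26.1 and 17.3 CPM in WT. Its 3 counts in DEN_WT and 461 in WT gave a level in WT 163 times that in DEN_WT (interval 55.5 to 794, adjusted p = 0.0367). Hist1h2ac, which shares 14.1% of its 50-base words with another gene, the least among tested H2A genes, had 0.443 and 0.265 CPM in DEN_WT, against 10.8 and 7.47 CPM in WT (log2 fold change -4.65, SE 1.1, adjusted p = 0.0227). No tested H2A gene shares under 10%. Hist1h2ab and the pseudogene Hist1h2al were the 2 tested H2A genes that were not called, at log2 fold changes of -3.32 and -3.66.

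The other called H2A genes are core histone genes of the Hist1 cluster with nearly the same values, and whether these hold the same reads was not tested. Hist1h2ad had 19.3, 9.09, 1.49 and 1.37 CPM in PR-SET7_LOBE, 0 and 0 CPM in DEN_WT, and 10 and 6.27 CPM in WT (at least 61.3-fold lower in DEN_WT, adjusted p = 0.0228). Hist1h2ae held 19.3, 8.9, 1.67 and 1.55 CPM in PR-SET7_LOBE, 0.0885 and 0 CPM in DEN_WT, and 9.86 and 6.27 CPM in WT (WT over DEN_WT 182, interval 32.2 to 7220, adjusted p = 0.0216). Hist1h2af had 17.9, 8.51, 1.21 and 1.18 CPM in PR-SET7_LOBE, 0 and 0.0883 CPM in DEN_WT, and 6.99 and 5.07 CPM in WT (WT over DEN_WT 136, interval 24 to 5410, adjusted p = 0.0332). Within each library these genes lay close together, and in DEN_WT they held 0 or 1 count. Hist1h2ah held 19.3, 8.99, 1.3 and 1.37 CPM in PR-SET7_LOBE, 0 and 0.0883 CPM in DEN_WT, and 10 and 6.27 CPM in WT (WT over DEN_WT 184, interval 32.5 to 7300, adjusted p = 0.0261). Hist1h2ai had 19.4, 9.09, 1.21 and 1.37 CPM in PR-SET7_LOBE, 0.0885 and 0.0883 CPM in DEN_WT, and 10 and 6.27 CPM in WT (WT over DEN_WT 91.9, interval 25.1 to 765, adjusted p = 0.0297). Hist1h2ak held 4.13, 2.77, 0.464 and 0.638 CPM in PR-SET7_LOBE, 0 and 0 CPM in DEN_WT, and 2.49 and 3.96 CPM in WT (at least 24.4-fold lower in DEN_WT, adjusted p = 0.0223). Hist1h2ak stood apart with lower levels in WT. Hist1h2an had 17.9, 8.8, 1.11 and 1.37 CPM in PR-SET7_LOBE, 0 and 0.0883 CPM in DEN_WT, and 9.86 and 6.27 CPM in WT (WT over DEN_WT 182, interval 32.2 to 7220, adjusted p = 0.0262). Hist1h2ao held 19.6, 9.66, 1.49 and 1.55 CPM in PR-SET7_LOBE, 0.0885 and 0.177 CPM in DEN_WT, and 10 and 6.64 CPM in WT (WT over DEN_WT 62.7, interval 21.1 to 307, adjusted p = 0.0296). Hist1h2ap had 19.6, 9.57, 1.49 and 1.55 CPM in PR-SET7_LOBE, 0.177 and 0.353 CPM in DEN_WT, and 10 and 6.64 CPM in WT (log2 fold change -4.92, adjusted p = 0.0424). In each of them both DEN_WT libraries lay below all libraries of the other groups.

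The other called H2B genes include pairs with nearly equal values in PR-SET7_LOBE, such as Hist1h2bk with Hist1h2bl. Hist1h2bb had 19.1, 13.7, 3.71 and 3.19 CPM in PR-SET7_LOBE, 0.885 and 0.972 CPM in DEN_WT, and 11.6 and 33.7 CPM in WT (log2 fold change -4.59, adjusted p = 0.0171). Hist1h2be held 72.1, 35.4, 13.3 and 17.3 CPM in PR-SET7_LOBE, 2.66 and 3.89 CPM in DEN_WT, and 41.6 and 71.2 CPM in WT (log2 fold change -4.10, adjusted p = 0.0113). Hist1h2bh had 32.9, 22.9, 5.76 and 6.1 CPM in PR-SET7_LOBE, 0.531 and 0.618 CPM in DEN_WT, and 26.1 and 38.8 CPM in WT (log2 fold change -5.79, adjusted p = 0.00539). The WT libraries were above DEN_WT in each of these, and PR-SET7_LOBE replicates 3 and 4 lay between them. Hist1h2bj held 17, 11.6, 3.53 and 1.82 CPM in PR-SET7_LOBE, 0.443 and 0.177 CPM in DEN_WT, and 15.5 and 23.8 CPM in WT (log2 fold change -5.94, adjusted p = 0.01). Hist1h2bk had 34.7, 22.6, 9 and 7.93 CPM in PR-SET7_LOBE, 0.177 and 0.265 CPM in DEN_WT, and 27.7 and 46.8 CPM in WT (log2 fold change -7.32, adjusted p = 0.00209). Hist1h2bl held 33.7, 23, 9 and 7.93 CPM in PR-SET7_LOBE, 0.708 and 0.53 CPM in DEN_WT, and 25.2 and 46.7 CPM in WT (log2 fold change -5.83, adjusted p = 0.00293). In these 3 genes no DEN_WT value reached 1 CPM. Hist1h2bm had 17, 13, 3.34 and 2 CPM in PR-SET7_LOBE, 0.0885 and 0 CPM in DEN_WT, and 9.86 and 33.3 CPM in WT (WT over DEN_WT 493, interval 88 to 19500, adjusted p = 0.00691). Hist1h2bp held 30.8, 22.1, 6.87 and 5.19 CPM in PR-SET7_LOBE, 0.0885 and 0 CPM in DEN_WT, and 21.1 and 45.9 CPM in WT (WT over DEN_WT 763, interval 136 to 30200, adjusted p = 0.00264). Hist1h2bm overlaps the pseudogene Hist1h2aj on the other strand over part of its length, and reads of that part cannot be told apart without strand. Hist1h2bq had 38.5, 26, 11.8 and 10.6 CPM in PR-SET7_LOBE, 1.42 and 1.5 CPM in DEN_WT, and 31.7 and 53.6 CPM in WT (log2 fold change -4.86, adjusted p = 0.00321). Hist1h2br held 39.1, 26.2, 11.6 and 10.6 CPM in PR-SET7_LOBE, 0.443 and 0.795 CPM in DEN_WT, and 31.3 and 53.8 CPM in WT (log2 fold change -6.08, adjusted p = 0.00225). Hist1h2bq and Hist1h2br held nearly equal levels in PR-SET7_LOBE and WT, and the difference between them in DEN_WT was not tested.

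Among H4 genes, Hist1h4j had no counts in DEN_WT, against 1.72 and 2.12 CPM in WT, and was at least 14.5-fold lower in DEN_WT (adjusted p = 0.0191). Hist1h4f had the same counts as Hist1h4j in DEN_WT and WT and the same bound (adjusted p = 0.0406). Hist1h4i had 2.57 and 4.77 CPM in DEN_WT, against 6.22 and 3.6 CPM in WT, and its groups overlapped (log2 fold change -0.42, SE 0.68, adjusted p = 0.713). Hist2h4 had 0.531 and 1.32 CPM in DEN_WT, against 0.766 and 1.11 CPM in WT (log2 fold change -0.01, SE 0.99, adjusted p = 0.995). The H3 genes were at the edge of detection: the highest, Hist2h3c2, had 1.15 and 1.06 CPM in DEN_WT, against 4.4 and 4.24 CPM in WT (log2 fold change -1.96, SE 0.89, adjusted p = 0.174).

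Hist1h4k had 6.57, 1.34, 2.51 and 1.09 CPM in PR-SET7_LOBE, 0 and 0.0883 CPM in DEN_WT, and 1.72 and 2.12 CPM in WT (WT over DEN_WT 43.5, interval 7.39 to 1760, adjusted p = 0.0363). Hist1h4a held 6.57, 1.34, 2.79 and 1.09 CPM in PR-SET7_LOBE, 0.177 and 0.442 CPM in DEN_WT, and 1.72 and 2.12 CPM in WT (log2 fold change -2.59, adjusted p = 0.125). Hist1h4c had 5.63, 1.24, 2.41 and 1.09 CPM in PR-SET7_LOBE, 0.177 and 0 CPM in DEN_WT, and 1.91 and 2.12 CPM in WT (WT over DEN_WT 22.8, interval 5.95 to 195, adjusted p = 0.0501). All 3 H4 genes were lowest in DEN_WT, and the last 2 were not called. The remaining H3 genes had few counts. Hist1h3g held 1.03, 0.383, 0.65 and 1.18 CPM in PR-SET7_LOBE, 0.0885 and 0 CPM in DEN_WT, and 0 and 1.11 CPM in WT (WT over DEN_WT 12.7, interval 1.89 to 545, adjusted p = 0.251). Hist2h3c1 had 3.29, 0.383, 0 and 0 CPM in PR-SET7_LOBE, 0.443 and 0.265 CPM in DEN_WT, and 2.3 and 1.48 CPM in WT (log2 fold change -2.38, adjusted p = 0.396). Hist1h3b held 1.5, 0.383, 0.464 and 0.273 CPM in PR-SET7_LOBE, 0 and 0 CPM in DEN_WT, and 0.383 and 1.48 CPM in WT (at least 7.08-fold lower in DEN_WT, adjusted p = 0.0719). WT replicate 1 had no count of Hist1h3g, and no H3 gene was called.

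The number of calls rested on having both libraries of each small group. It was 12 of 58 tested histone genes without WT replicate 1 (3.02% of all tested genes called), 12 of 55 without WT replicate 2 (4.17%), 9 of 58 without DEN_WT replicate 1 (2.62%) and 7 of 57 without DEN_WT replicate 2 (1.75%). The 7 genes called whichever of the 8 libraries was left out were all H2B genes: Hist1h2bf, Hist1h2bk, Hist1h2bl, Hist1h2bn, Hist1h2bp, Hist1h2bq and Hist1h2br.

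The change in DEN_WT was next set beside how much of each gene's sequence other genes hold. Of the 4 tested histone genes that share under 10% of their 50-base words with another gene, Hist1h1c, Hist1h1d, Hist2h2be and Hist2h4, none was called, and their median log2 fold change was -0.07. Of the 20 that share 10 to 50%, 11 fell, with a median of -4.22. Of the 25 that share 50% or more, 17 fell, with a median of -5.94. Over all tested genes the 1094 that share 50% or more had a median log2 fold change of 1.02 in DEN_WT over WT, with 19.7% higher and 7.59% lower, and the 14576 that share under 10% had a median of 0.03. The 1094 genes include the 25 histone genes, and the difference between these medians was not tested. The part of read counting in the histone values was not tested.

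**Figure D5:**
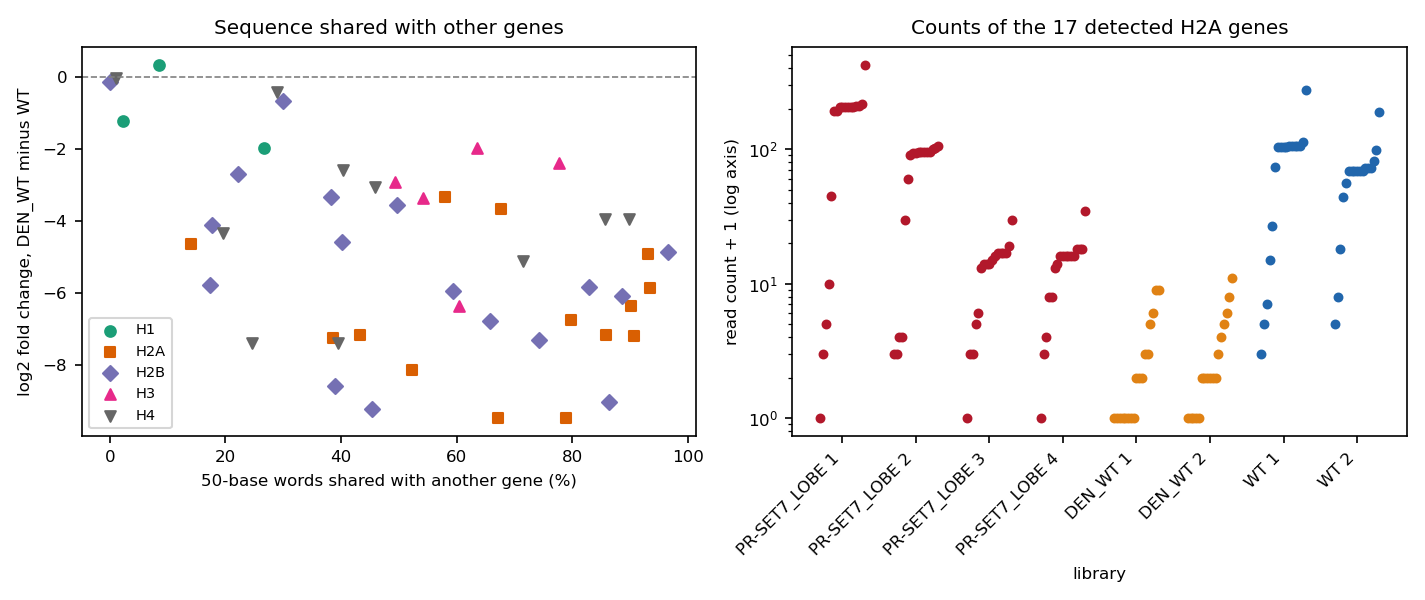
Left, log2 fold change of DEN_WT minus WT (vertical axis) against the percentage of a gene's 50-base words held by another gene (horizontal axis) for the 49 tested histone genes, by class; genes under 10% lie between -1.22 and 0.35. Right, count plus 1 (logarithmic axis) of each of the 17 detected H2A genes in each library, sorted within a library; the flat runs in PR-SET7_LOBE and WT are genes with nearly equal counts, and DEN_WT lies near 0 counts.

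The third comparison set the libraries labelled PR-SET7_LOBE against those labelled DEN_WT. Of the 49 tested histone genes 32 were higher in PR-SET7_LOBE and 0 lower (65.3% higher), where 11.1% of all tested genes were called, 4.82% higher and 6.26% lower. The groups did not overlap in 41 genes, all higher in PR-SET7_LOBE, as in 19.3% of all tested genes, and 0 were lower, against 21.2%. They were 2 of 3 H1, 12 of 14 H2A, 13 of 17 H2B, 0 of 5 H3 and 5 of 10 H4 genes. The median log2 fold change over the 49 genes was 4.7, or 4.3 with genes of 0 to 3 DEN_WT counts at their bound or ratio, against 0.177 over all tested genes. This comparison shares its DEN_WT libraries with the second and its PR-SET7_LOBE libraries with the first, so it is not independent of them. The H1 genes Hist1h1e and Hist1h1d were higher in PR-SET7_LOBE than in DEN_WT, by 3.99 (SE 0.8, adjusted p = 0.0089) and 2.98 (SE 0.79, adjusted p = 0.0341) on the log2 scale. The log2 fold change of Hist1h1c was 1.82 (adjusted p = 0.115). Hist1h2bn had 28.3, 17.1, 7.8 and 7.83 CPM in PR-SET7_LOBE, against 0 and 0.0883 CPM in DEN_WT, a level 342 times that in DEN_WT from 1 DEN_WT count (interval 61.3 to 13500, adjusted p = 0.00139). Hist1h4h, which with Hist1h1d, Hist1h1e and Hist1h4c was called here but not in DEN_WT against WT, had 9.3, 1.91, 3.43 and 2.0 CPM in PR-SET7_LOBE, against 0.354 and 0.177 CPM in DEN_WT (log2 fold change 3.91, SE 0.93, adjusted p = 0.0206). In both Hist1h2bn and Hist1h4h every PR-SET7_LOBE library was above both DEN_WT libraries. The count of calls was 6 of 58 tested histone genes without DEN_WT replicate 1 (3.77% of all tested genes called) and 5 of 57 without DEN_WT replicate 2 (2.41%).

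Most H2A and H2B genes lie head to head and share the stretch between their starts. In the deposited coordinates 13 such pairs start 168 to 306 bases apart, and in 11 both genes were tested. Per kilobase the H2B gene was higher than its H2A neighbour in all 8 libraries in 6 pairs and in 7 or more in 9 pairs. Hist1h2ac and Hist1h2bc, 251 bases apart, differed in DEN_WT: the log2 fold change over WT was -4.65 for Hist1h2ac and -0.67 for Hist1h2bc. In the Hist2 cluster Hist2h2ac and Hist2h2be, 241 bases apart, had log2 fold changes of -7.24 and -0.13. In the other 9 pairs with both genes tested, both had negative log2 fold changes, such as -8.14 for Hist1h2ak and -9.04 for Hist1h2bn. No test of the difference within pairs was made.

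Annotated 3' ends were set beside the same change. Among tested genes with a stem-loop, 6 of 17 whose transcript runs 100 or more bases past it fell in DEN_WT, with a median log2 fold change of -2.7, and 11 of 17 with a shorter run fell, with a median of -5.94. Of 15 tested genes with no stem-loop found 11 fell, with a median of -6.08, among them Hist1h2bq and Hist1h2br. Some of the 15 have short annotated transcripts, such as 381 bases for Hist1h2bn and 312 bases for Hist1h4k. Such a transcript may end before the place of a stem-loop, so these genes are not shown to lack one. Of 13 tested genes with AATAAA or ATTAAA in the last 40 bases of the transcript 5 fell, and of the other 36 genes 23 fell. The genes near WT levels in DEN_WT fell partly into these groups: Hist1h1c, Hist1h4i, Hist2h4 and Hist2h2be have such a signal, and Hist1h2bc does not in the transcript used. The split crosses the one by shared sequence, and neither was tested against the other.

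Genes that act on histone mRNA or mark the cell cycle were described from 7 lists. In PR-SET7_LOBE against WT none of the 12 histone transcription, 14 histone mRNA processing, 11 poly(A) machinery, 18 histone chaperone, 25 S-phase, 20 mitosis or 11 replacement variant genes was called. Over all tested genes 0.248% were called in that comparison. Npat, the coactivator of histone gene transcription, had 1.22, 3.73, 9.38 and 4.92 CPM in PR-SET7_LOBE, 7.0 and 5.74 CPM in DEN_WT, and 0.957 and 1.29 CPM in WT. It lay above WT in 3 PR-SET7_LOBE libraries and in both DEN_WT libraries, with log2 fold changes over WT of 2.09 (adjusted p = 0.225) and 2.49 (adjusted p = 0.0809). Slbp, which encodes the stem-loop binding protein, had 9.96, 12.4, 14.4 and 8.93 CPM in PR-SET7_LOBE, 13.7 and 13.2 CPM in DEN_WT, and 12.3 and 7.74 CPM in WT. The Slbp groups of PR-SET7_LOBE and WT overlapped, and its log2 fold changes were 0.19 (adjusted p = 0.82) in PR-SET7_LOBE and 0.42 (adjusted p = 0.549) in DEN_WT.

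In DEN_WT against WT, 6 of 20 mitosis genes rose and 1 fell, with a list median of 2.64, while H2A and H2B genes fell. Those that rose were Top2a (topoisomerase), Ccnb1, Ccnb2 and Ccna2 (cyclins), Cdk1 and Kif20a, at 1.5 to 5.58 CPM in DEN_WT, against 0 to 0.83 CPM in WT. Cenpf, a kinetochore protein gene, fell (log2 fold change -2.7, adjusted p = 0.0441). A positive mitosis list median was not particular to DEN_WT: in PR-SET7_LOBE over WT it was 2.8, with none called. The 20 mitosis genes summed to 60.6 to 112 CPM in PR-SET7_LOBE, 56.5 to 68.8 CPM in DEN_WT and 28.1 to 52.1 CPM in WT. Mki67, a marker of cycling cells, had 3.47, 7.46, 24.3 and 10.1 CPM in PR-SET7_LOBE, 9.83 and 5.12 CPM in DEN_WT, and 1.34 and 0.645 CPM in WT (log2 fold change in DEN_WT over WT 2.9, adjusted p = 0.0621). Of 25 S-phase genes 1 rose, Rrm2, a subunit of ribonucleotide reductase (log2 fold change 2.26, adjusted p = 0.0256), and 1 fell, Tk1, a thymidine kinase (log2 fold change -2.27, adjusted p = 0.0122). Of 18 chaperones 1 rose, Asf1a (log2 fold change 2.64, adjusted p = 0.039). Over all tested genes 5.18% were called higher and 4.54% lower in DEN_WT than in WT. Calls of 1 gene in the S-phase and chaperone lists are near those shares. Of 11 replacement variants, whose mRNAs carry poly(A) tails in all phases, Cenpa rose (log2 fold change 2.96, adjusted p = 0.0191) and H3f3a fell. H3f3a had 69.2, 42.4, 39.2 and 47.0 CPM in PR-SET7_LOBE, 9.21 and 13.6 CPM in DEN_WT, and 70.8 and 50.9 CPM in WT (log2 fold change in DEN_WT over WT -2.41, SE 0.45, adjusted p = 0.00904). It shares 14.9% of its 50-base words with other genes, and it was not called without WT replicate 1 (adjusted p = 0.0658), DEN_WT replicate 1 (0.129) or DEN_WT replicate 2 (0.0779). The transcription, processing and poly(A) lists held no call. Between PR-SET7_LOBE and DEN_WT, H3f3a, E2f1, a transcription factor of S-phase entry, and Chaf1a, a subunit of chromatin assembly factor 1, were higher in PR-SET7_LOBE, and Cpsf7, a subunit of the cleavage factor of poly(A) sites, was lower.

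Summed marker levels of some liver cell types differed between DEN_WT and WT, in both directions, and those of others overlapped. The summed level of 12 T and NK cell markers was 26 to 41.8 CPM in PR-SET7_LOBE, 11.7 to 14.6 CPM in DEN_WT and 26.6 to 33.8 CPM in WT, and that of the 8 B and plasma cell markers found in the table was 30.9 to 49.2 CPM in PR-SET7_LOBE, 11.7 to 12.7 CPM in DEN_WT and 28.2 to 36.5 CPM in WT. The 9 erythroid markers found summed to 306 to 1230 CPM in PR-SET7_LOBE, 765 to 1020 CPM in DEN_WT and 1750 to 2680 CPM in WT. In DEN_WT against WT, 1 of 11 tested T and NK markers (Cd3d), 1 of 7 tested B and plasma markers (Cd22) and 0 of 8 tested erythroid markers fell. None of these markers was at 0 in all libraries. Over all tested genes 5.18% were called higher and 4.54% lower in DEN_WT. The list median of the log2 fold change in DEN_WT over WT was -0.25 for T and NK markers, 0.05 for B and plasma markers and -1.72 for erythroid markers. The 8 ductal markers summed to 121 to 296 CPM in PR-SET7_LOBE, 436 to 738 CPM in DEN_WT and 38.7 to 67.8 CPM in WT, and 1 of them, Spp1, rose in DEN_WT. The 8 stellate cell markers summed to 128 to 250 CPM in PR-SET7_LOBE, 166 to 303 CPM in DEN_WT and 87.5 to 115 CPM in WT, with no call. The 11 hepatocyte markers found summed to 56800 to 180000 CPM in PR-SET7_LOBE, 153000 to 192000 CPM in DEN_WT and 128000 to 162000 CPM in WT, which fits the labelled tissue. The 11 macrophage markers found summed to 474 to 920 CPM in PR-SET7_LOBE, 291 to 432 CPM in DEN_WT and 381 to 1270 CPM in WT. For 8 endothelial markers the sums were 160 to 233, 199 to 206 and 175 to 263 CPM in the same order. For 10 neutrophil markers they were 6.2 to 29.9, 2.03 to 5.57 and 5.55 to 9.77 CPM. In these lists DEN_WT and WT overlapped, and 1 gene, the macrophage marker Gpnmb, rose in DEN_WT. The part of any of these cell types in the histone values was not tested.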

How the data were processed

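Messenger RNA of liver was isolated on oligo(dT) beads, fragmented with RNase III and read on an Ion Proton, per the labels' protocols. The authors deposited unnormalised counts for each Ensembl gene; TopHat2 2.0.9, Cufflinks and DESeq with the mm9 build are named in the submitters' processing notes. How reads were assigned (tool, strand, multiple hits) was not given in the sources used here, so counts of near-identical copies and of overlapping genes, such as Hist1h2bm with Hist1h2aj, are uncertain.

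A single model of the 3 groups over the 8 libraries was fitted (edgeR 4.0.16, TMM, filterByExpr, robust quasi-likelihood test). Of 37583 genes 17362 were tested, p-values were adjusted over all of them by the Benjamini-Hochberg method, and calls are at an adjusted p under 0.05. CPM uses TMM-adjusted library sizes; 3 counts correspond to 0.265 to 0.287 CPM per library. A fold against a group with no counts is a bound against 3 counts over the group, and 1 to 3 counts give a ratio with a 95% interval that covers counting error only. Shared sequence is the percentage of 50-base words of the longest GENCODE M21 transcript held by another gene; 59 histone genes matched by identifier and 12 by symbol. Promoters are from RefSeq (GRCm38.p6), whose build differs from that of the counts.

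Given in full are genes called in any comparison, the up to 4 of each class with the highest mean CPM, and per class the largest change against WT at a mean CPM of 1 or more; from the lists, genes called, with Slbp, Npat, Mki67 and Setd8, and up to 2 more by p. Other genes given singly were chosen after their values were seen. The histone genes and the lists were chosen with earlier results of these data known. Alternatives were other scalings, filters and tools (DESeq2 1.42.0, limma 3.58.1 voom with quality weights), 2-group fits, a replicate block and leaving out each library; a GC correction and sums over fewer genes of a class were chosen after seeing the data. The fit was tested on simulated counts.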

Additional observations from a re-analysis of the deposited data

Results flagged for a closer look

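4 values of single genes in PR-SET7_LOBE had 1 library far from the other 3, by Dixon's gap-to-range ratio, among 47 values checked; chance alone marks about 1 in 20 groups. In each it was replicate 1 that was highest, the library that also held the highest PR-SET7_LOBE level in 47 of 49 tested histone genes. Hist2h2ac had 39.9 CPM there, and the next library had 5.64 CPM. Hist2h3c1 had 3.29 CPM, and the next had 0.383 CPM. Hist1h4f had 5.54 CPM, and the next had 1.3 CPM. Hist1h3b had 1.5 CPM, and the next had 0.464 CPM. No class sum was marked.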

How the results depend on the processing

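In PR-SET7_LOBE against WT, 0 histone genes were called, and DESeq2 gave 2, limma 1 and no filter on low counts 1; leaving out 1 library gave 0 to 2. In DEN_WT against WT, 28 were called, 24 to 41 under the other alternatives and 7 to 35 with 1 library left out. In PR-SET7_LOBE against DEN_WT, 32 were called, 27 to 38 under the other alternatives and 5 to 35 with 1 library left out. The share of all tested genes called also moved. In DEN_WT against WT it was 9.73% in the main fit and 37.8% in the 2-group fit. It was 36.3% with limma, which gave the 41 histone calls. Without PR-SET7_LOBE replicate 1, which gave the 35, it was 26.5%. In PR-SET7_LOBE against DEN_WT it was 11.1% in the main fit and 29.7% with limma, which gave the 38. Without PR-SET7_LOBE replicate 4, which gave the 35, it was 11.7%. Class sums moved beyond the spread between libraries in the settings given here. For DEN_WT over WT the log2 ratio without the highest gene was -1.89 for H1 (0.17 with it), -4.65 for H2B, -3.83 for H3 and -3.1 for H4. Taking from each library only its highest gene, it was -4.77 for H2A, -0.67 for H2B, -1.97 for H3 and -0.42 for H4. For H2A that gene was Hist2h2ac in WT and Hist1h2ab in DEN_WT, so -4.77 is not the change of a single gene. By total counts the log2 ratio was -4.73 for H2A, -2.23 for H2B, -2.27 for H3 and -1.34 for H4. Over genes with under 30% shared sequence it was -4.82 for H2A, -3.57 for H2B and -1.22 for H4. For PR-SET7_LOBE over DEN_WT it was 3.44 for H1, 3.78 for H2B and 3.48 for H4 without the highest gene of the class. With only the highest gene of each library it was 0.48 for H2B and 0.42 for H4. The cause was not tested. Signs of class sums differed for H1 in DEN_WT over WT without Hist1h1c, and without WT replicate 2 (-0.21), and for H2A, H3 and H4 in PR-SET7_LOBE over WT under some settings; among values of single genes the sign differed in 84 of 683 for PR-SET7_LOBE over WT, 3 of 681 for DEN_WT over WT and 8 of 679 for PR-SET7_LOBE over DEN_WT, none of them between calls. Depth limits genes with 0 to 3 counts to bounds or ratios.

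With the replicate number as a block the counts were 0, 33 and 36. Replicate numbers are shared by 2 libraries a group, and same-numbered libraries deviated together with r of -0.00874 to 0.165, so the numbers were not taken as pairs.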
